A study of Mus musculus with 6 samples.

Results

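The collagen genes were taken as every gene whose symbol is Col, a number, the letter a and a number, with nothing after it. This gave 44 of the 52636 genes in the count table. They were grouped by structure into 11 fibrillar genes, 9 genes of basement membranes, 9 FACIT genes (fibril-associated collagens with interrupted helices), 4 transmembrane genes and 11 others, which make beaded filaments, short chains and related forms. The rule uses the symbol and no expression value, although the family was chosen with earlier results of these data known.

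RNA was sequenced from cultured cells of the mouse mammary tumour lines J110 and SSM3, with 3 biological replicates of each. J110 came from a tumour of transgenic mice with AIB1 cDNA under the MMTV LTR, a viral promoter that is active in mammary epithelium. SSM3 came from mammary tumours of other mice. Each line is one tumour-derived line grown without the stroma of a tumour, and neither was treated. Serum, CO2 and supplements of the medium also differed with the line, so that line and culture cannot be told apart. The libraries hold one tag per transcript end, so counts were not divided by gene length, although how well the end of each gene is captured was not tested. The comparison describes which collagen genes each of these models of breast cancer transcribes in culture.

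Collagens are secreted proteins in which 3 chains wind into a helix. Types IV, VII and XVIII belong to the basement membrane, the sheet beneath mammary epithelium, while types I, III and V form the fibrils of the stroma and type VI forms beaded filaments between both. The chains of a type are often the products of different genes that must be made together. Before secretion they are hydroxylated, folded and packed in the endoplasmic reticulum, and afterwards they are trimmed and cross-linked.

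Total counts were between 5209740 and 5416305 in J110 and between 4200785 and 4792941 in SSM3. A count of 3 stood for 0.578 to 0.668 CPM (counts scaled to a common library size, with TMM factors), which was taken as the upper limit where a line had no count of a gene. Ncoa3, the gene of AIB1, had 110, 106 and 102 counts in J110 and 181, 199 and 186 in SSM3. Tags at the 3′ end need not fall in the transgene, so this gene does not check the labels, which were taken as given. Of the 7 epithelial markers examined, Krt8 and Krt18 were high in both lines, but Epcam had 2, 1 and 7 counts in J110 against 2376, 2404 and 2412 in SSM3. Cdh1, with 21, 11 and 28 counts against 6019, 6369 and 7179, and Krt19, with 74, 59 and 143 against 33815, 32985 and 38701, were likewise far lower in J110, Krt14 reached 9 and 35 counts and Krt5 reached 2 in each line. Genes that are high in one line and nearly absent from the other still had scattered counts in the latter, amounting to 0.204% of the level of the expressing line in J110 replicate 3, 0.447% in SSM3 replicate 2 and 0.0304% to 0.170% in the rest. For each library this was taken over genes at 50 CPM or more in every library of the other line. Only genes with at most 1 count in all in the remaining libraries of its own line were used, without collagen genes. In SSM3 replicate 1, Plod2 alone gave 8 of the 14 counts behind the share. The counts that such a share of the expressing line would bring are called the other-line share below.

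J110 and SSM3 differed in both the amount and the kind of collagen transcript. Over all 44 genes, J110 had 3932, 3721 and 3462 counts and SSM3 had 1004, 1026 and 1022. Scaled to CPM, the sum was 739 ± 18.0 against 215 ± 10.4 (mean ± SD over 3 libraries of a line, as in all such values below), a 3.44-fold difference with no overlap between the lines. Without Col6a3, the sum was 725 ± 20.2 CPM in J110 and 8.25 ± 0.764 CPM in SSM3, which is 87.9-fold higher in J110. These sums carry no test, since the genes were chosen with results of these data known. In these bulk samples, fewer cells that make a transcript and less of it per cell cannot be told apart.

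Basement membrane genes made up 84.1% ± 0.343 of the collagen counts in J110 and 1.87% ± 0.0785 in SSM3. Fibrillar genes made up 12.1% ± 0.778 in J110 and 0.525% ± 0.157 in SSM3. In J110 the single gene Col18a1 held 48.0% ± 0.528, Col4a1 held 21.3% ± 0.915 and Col4a2 held 9.44%, 9.92% and 10.7%. In SSM3 the single gene Col6a3 held 96.2% ± 0.239 of all collagen counts, against 1.84% ± 0.359 in J110. The replicates of a line were therefore closely alike in their make-up, while the leading gene differed between the lines.

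**Figure D1:**
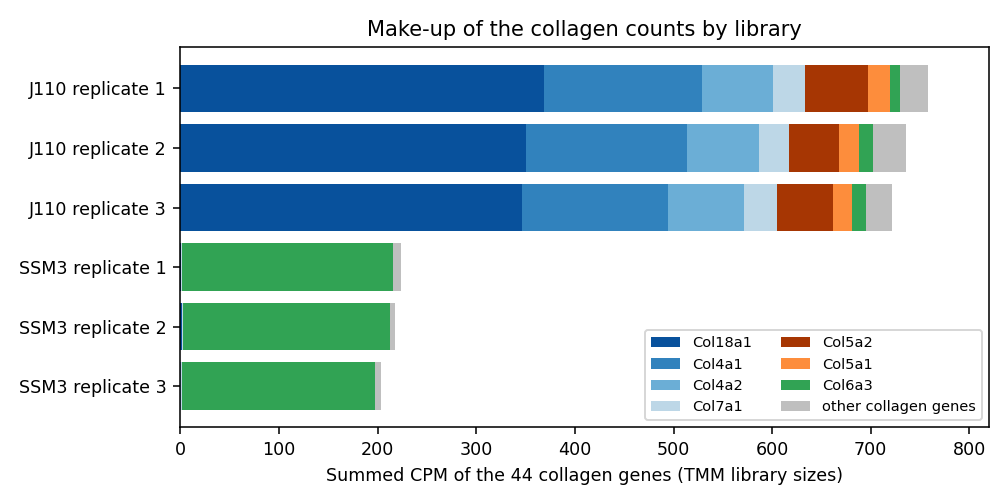
Summed CPM of the 44 collagen genes in each of the 6 libraries, split by gene, with genes outside the 7 shown pooled in grey. The 3 J110 bars reach 722 to 758 CPM and are mostly Col18a1, Col4a1 and Col4a2, and the 3 SSM3 bars reach 203 to 224 CPM and are mostly Col6a3.

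Of the 44 genes, 10 passed the filter on low counts and were tested with edgeR. All 10 passed the threshold of an adjusted p below 0.05, with 9 lower and 1, Col6a3, higher in SSM3. The background for these calls is high, as 39.2% of the 12284 genes tested were lower and 38.6% higher in SSM3. By the fitted fold change, 9 collagen genes were lower by at least 4-fold, against 11.7% of all genes tested. The 9 lower genes passed the filter only through their counts in J110, which favours a lower value in SSM3. For genes without counts in SSM3 the fitted fold depends on the prior count. Counting all 44 members without a filter, 14 had more than 3 counts in every library of J110 and 1 had so in SSM3, which is 31.8% and 2.27%, beside 23.6% and 22.7% of all 52636 genes. This cut is on raw counts, and the J110 libraries are deeper. No FACIT or transmembrane gene was tested, because none reached the filter. Of the tested genes, Col4a1 and Col4a2 share exon bases on opposite strands, as do Col5a1 and 2810430I11Rik, which had at most 2 counts. Col7a1 shares them on the same strand with Mir711, which had no count, and 6 of the 10 calls were kept when genes with such overlaps were left out.

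**Figure D2:**
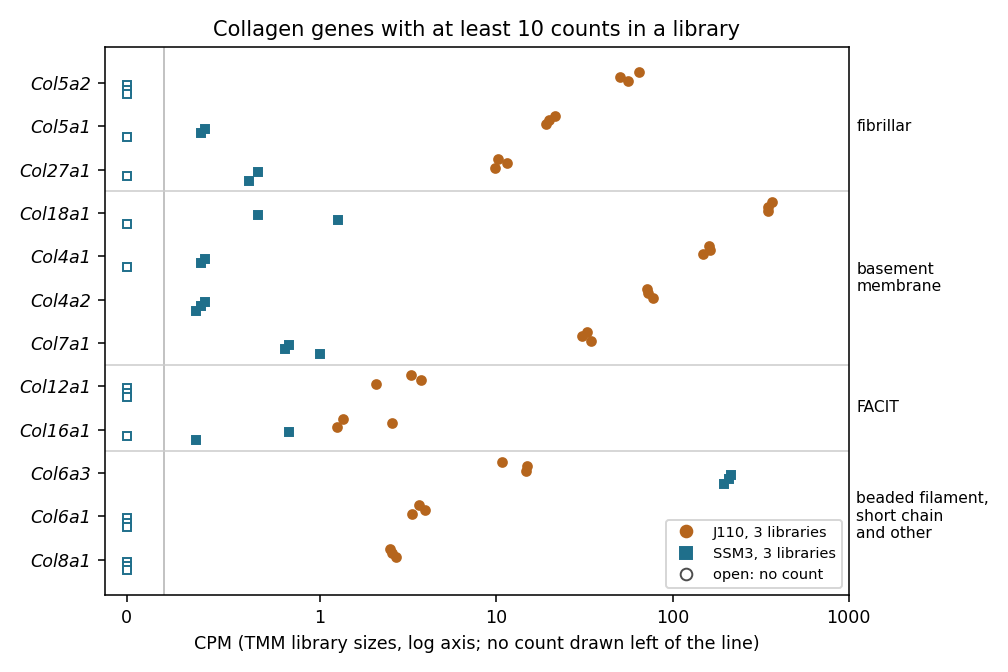
CPM (log axis) of the 12 collagen genes with at least 10 counts in any library, in 3 J110 and 3 SSM3 libraries, grouped by class, with open symbols left of the line for libraries without a count. The J110 points lie to the right of the SSM3 points for every gene shown except Col6a3, for which the order is turned. Every gene shown but Col6a3 reached 10 counts only in J110, which favours this order. Col9a1 and Col4a3, which were higher in SSM3, fall below the cut.

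Col18a1 (chr10:77052178-77166548 of mm10, minus strand), whose protein is a heparan sulphate proteoglycan of basement membranes and the source of the fragment endostatin, was the most highly counted collagen gene of J110. It had 1912, 1771 and 1659 counts in J110 and 2, 6 and 0 in SSM3. Every SSM3 library was far below every J110 library. At 355 ± 11.9 CPM, J110 stood above SSM3 with 0.573 ± 0.647 CPM, which on the log2 scale is a difference of -9.24 ± 0.21 (± standard error; edgeR, adjusted p = 1.14e-15). At the share of other-line counts measured in each SSM3 library, 2.71, 7.47 and 1.81 counts would be present. The SSM3 counts of Col18a1 were not above these values, although the value of replicate 1 rests largely on Plod2. Without SSM3 replicate 2, which had 6 of its 8 SSM3 counts, the log2 difference was -10.55, and without SSM3 replicate 3, which had none, it was -8.63.

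Col4a1 (chr8:11198423-11312826, minus strand) and Col4a2 (chr8:11312805-11449287, plus strand) encode the chains that together form the main collagen network of basement membranes. The genes start within 22 bases of each other and run in opposite directions. The stretch that both genes annotate as transcribed is shown because it lies at the shared start of this pair, with the letters of a GC box (GGGCGG) in capitals, read on the plus strand of GRCm38 at chr8:11312805-11312826.
Col4a1 and Col4a2: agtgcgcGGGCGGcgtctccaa

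Col4a1 had 830, 830 and 710 counts in J110 and 1, 1 and 0 in SSM3. Col4a2 had 371, 369 and 369 counts in J110 and 1, 1 and 1 in SSM3. Both were near the top of the collagen genes in every J110 library and at or below 1 count in every SSM3 library. Col4a1 was at 157 ± 8.31 CPM in J110, 1121-fold higher by summed counts than in SSM3 (95% exact binomial interval 310 to 9263, edgeR adjusted p = 8.90e-16). Col4a2 was at 73.8 ± 2.84 CPM in J110, 350-fold higher (interval 119 to 1699, edgeR adjusted p = 9.08e-15). Such intervals cover counting error only, since no molecular identifiers are named for these libraries. The other-line share would bring 0.802 to 3.31 counts of Col4a1 and 0.376 to 1.55 of Col4a2, so these counts too were not clearly above it. Within J110, the ratio of Col4a1 to Col4a2 counts was 2.24, 2.25 and 1.92. It was thus steady between replicates, at 2.14 ± 0.184.

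Col7a1 (chr9:108953586-108984875, plus strand) encodes type VII collagen of the anchoring fibrils, which tie the basement membrane of skin and other lining epithelia to the stroma. It had 170, 154 and 165 counts in J110 and 3, 3 and 5 in SSM3. The levels were 32.6 ± 1.99 CPM and 0.767 ± 0.198 CPM, which on the log2 scale is a difference of -5.35 ± 0.24 (± standard error; edgeR, adjusted p = 3.90e-12). Unlike Col18a1 and Col4a1, the few SSM3 counts of Col7a1 exceeded the 0.249, 0.685 and 0.166 counts that the other-line share would bring, in each of the 3 libraries.

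The remaining basement membrane genes, Col4a3 to Col4a6 and Col15a1, were not tested, and their highest count in any library was 9. Col4a3, Col4a4 and Col4a5 form the network of the kidney glomerulus, and Col4a6 pairs with Col4a5 in smooth muscle and other basement membranes. Col4a5 had 5, 9 and 9 counts in J110 and 3, 5 and 5 in SSM3, and the lines overlapped. Col4a4 reached 4 counts and Col4a6 reached 3, both with overlap between the lines. Col4a3 had 0, 1 and 0 counts in J110 and 3, 2 and 6 in SSM3, and Col15a1, which is related to Col18a1, had 3, 1 and 5 in J110 and 0 in each SSM3 library. Like Col4a1 and Col4a2, the pairs Col4a4 and Col4a3 (chromosome 1, 71 bases apart) and Col4a6 and Col4a5 (chromosome X, 1.31 kb apart) lie head to head, and none of those 4 genes had more than 9 counts in any library.

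Among the fibrillar genes, those of the minor fibrillar types V and XXVII were found in J110, whereas those of the abundant stromal types I and III had no more than 6 counts in any library. Col5a1 (chr2:27886425-28039514, plus strand) and Col5a2 (chr1:45374321-45503282, minus strand) encode the chains of type V collagen, which nucleates fibrils. Col5a2 had 334, 254 and 268 counts in J110 and 0, 0 and 0 in SSM3. It was at 56.9 ± 7.12 CPM in J110, at least 85.1-fold higher than in SSM3 when 3 counts per library are taken as the limit (edgeR adjusted p = 3.76e-12). Col5a1 had 111, 101 and 92 counts in J110 and 1, 1 and 0 in SSM3. It was at 20.2 ± 1.12 CPM in J110, 144-fold higher by summed counts (interval 39.5 to 1193, edgeR adjusted p = 6.93e-11). The other-line share would bring 0.154, 0.425 and 0.103 counts of Col5a1 to the SSM3 libraries. Both type V genes were thus present in all J110 libraries, and the ratio of Col5a2 to Col5a1 was 3.01, 2.51 and 2.91 there. Col5a3, the gene of the less common alpha3 chain of type V, had 1 count in each J110 library and 0 in SSM3.

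Col27a1 (chr4:63214004-63334991, plus strand), a fibrillar collagen known from cartilage, had 53, 58 and 47 counts in J110 and 2, 0 and 2 in SSM3. The levels were 10.5 ± 0.867 CPM and 0.281 ± 0.245 CPM, which on the log2 scale is a difference of -5.10 ± 0.43 (± standard error; edgeR, adjusted p = 1.26e-08). The other-line share would bring 0.0802, 0.221 and 0.0535 counts of Col27a1, below its SSM3 counts in replicates 1 and 3. For the genes with no SSM3 count, it would bring at most 1.20 counts of Col5a2 and 0.0769 of Col6a1 in a library. Col1a1, the main chain of bone, skin and stromal fibrils, had 5, 6 and 5 counts in J110 and 0 in each SSM3 library, while its partner Col1a2 had no count in any library. Col3a1 had 3 counts in J110 replicate 2 and none elsewhere, although it lies 24.6 kb from Col5a2 on chromosome 1, tail to tail. Col11a2 reached 4 counts and Col11a1 reached 2, with the lines overlapping. The cartilage gene Col2a1 and Col24a1 had no count in any library.

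**Figure D3:**
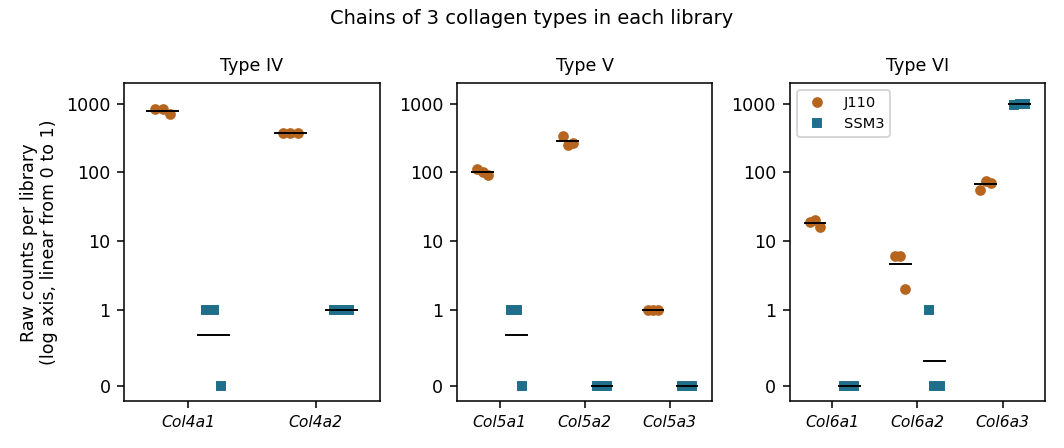
Raw counts of Col4a1 and Col4a2 of type IV, Col5a1 to Col5a3 of type V and Col6a1 to Col6a3 of type VI in each library, on an axis that is logarithmic above 1 and linear below it, with a bar at the mean of the 3 libraries of a line. Of these 8 genes, J110 has more than 1 count of each except Col5a3, which is at 1 in each library, whereas no SSM3 library has more than 1 count of any but Col6a3.

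Type VI collagen showed a different pattern for its chains in each line. Its filaments are built from the products of Col6a1, Col6a2 and Col6a3 or a gene related to Col6a3, with the first pair of chains required in each unit. Col6a3 lies at chr1:90765923-90843971 on the minus strand. In J110 it had 56, 76 and 71 counts, and in SSM3 it had 963, 989 and 983. The levels were 13.5 ± 2.39 CPM and 207 ± 9.85 CPM, which on the log2 scale is a difference of 3.93 ± 0.12 (± standard error; edgeR, adjusted p = 1.78e-14). It was the only collagen gene above 3 counts in every library of both lines, and its J110 counts exceeded the 0.613, 0.317 and 2.02 counts that the other-line share would bring.

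Col6a1 lies at chr10:76708792-76726168 on the minus strand. In J110 it had 19, 20 and 16 counts, and in SSM3 it had 0, 0 and 0. It was at 3.65 ± 0.309 CPM in J110, at least 5.47-fold higher than in SSM3 (edgeR adjusted p = 1.22e-06). Col6a2, its neighbour on chromosome 10 at a distance of 85.2 kb, had 6, 6 and 2 counts in J110 and 1, 0 and 0 in SSM3 and was not tested. Col6a3 and Col6a1 thus changed in opposite directions, and SSM3 had 1 count in all on the other chains beside 963 to 989 of Col6a3 per library. In J110 the ratio of Col6a3 to Col6a1 was 2.95, 3.80 and 4.44. Of the genes related to Col6a3, Col6a4, Col6a5 and Col6a6 had no count in any library.

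The sequences upstream of the start of Col6a3 and Col6a1 are shown because these genes encode chains of one protein and changed in opposite directions. Both are from RefSeq on GRCm38, written 5′ to 3′ on the minus strand of the gene, and lie outside annotated exons. The stretch of Col6a1 is shorter because it was cut at an exon of the GENCODE annotation that reaches beyond the RefSeq start. That of Col6a3 is chr1:90843972-90844221 and that of Col6a1 is chr10:76726169-76726294. Neither stretch holds the letters of an AP-1 site, a CCAAT box, a GC box or a TATA box, so no letter is in capitals.
Col6a3: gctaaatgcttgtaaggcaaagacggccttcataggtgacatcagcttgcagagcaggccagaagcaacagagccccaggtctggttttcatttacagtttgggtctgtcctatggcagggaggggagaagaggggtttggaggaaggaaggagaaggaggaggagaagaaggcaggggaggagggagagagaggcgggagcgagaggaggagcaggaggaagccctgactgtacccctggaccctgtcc
Col6a1: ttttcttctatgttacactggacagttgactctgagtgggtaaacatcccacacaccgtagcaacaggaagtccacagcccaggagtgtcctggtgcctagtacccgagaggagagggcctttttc

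Windows from 250 bases before to 50 after the RefSeq start were at hand for 35 of the 44 collagen genes and for 9 of the 10 tested ones, all but Col5a2. On either strand, GGGCGG was found in 7 of the 10 windows of tested genes, CCAAT in 4, TGANTCA, the letters of an AP-1 site, in 1 and TATAAA in 0. Over all 38 windows of collagen genes the shares were 60.5%, 34.2%, 2.63% and 13.2%, beside 35.7%, 37.4%, 7.81% and 13.6% of 32851 windows of all genes. The windows of Col4a1 and Col4a2 overlap and share letters. Col6a3, the collagen gene that was higher in SSM3, had none of the 4 motifs in its window. The only AP-1 letters were in that of Col6a1. They lie before its RefSeq start but within an exon of the GENCODE annotation, and thus outside the stretch printed above. These matches describe letters and not binding.

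Col8a1 (chr16:57624258-57754737, minus strand), a short chain collagen known from the matrix of vessels and the cornea, had 13, 13 and 13 counts in J110 and 0, 0 and 0 in SSM3. This was at least 3.89-fold higher in J110 (edgeR adjusted p = 5.69e-06). Its partner Col8a2 reached 2 counts in each line, and Col10a1, the related gene of growth plate cartilage, reached 1. Col28a1 had 1 count in 1 library and Col26a1 had none.

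The FACIT collagens, which decorate the surface of fibrils, were low in both lines. Col12a1, a FACIT gene of tendon and dense stroma, had 17, 19 and 10 counts in J110 and 0, 0 and 0 in SSM3, at least 4.55-fold higher in J110. Col16a1 had 7, 13 and 6 counts in J110 and 3, 0 and 1 in SSM3. For both genes the lines did not overlap, but neither met the filter. Col9a1, a cartilage gene, was the reverse, with 0 in each J110 library and 8, 3 and 3 counts in SSM3. Its partners Col9a2 and Col9a3 reached 1 and 7 counts, with the lines overlapping, as they did for Col14a1, which reached 4, and for Col22a1, which reached 2. Col20a1 had 1 count in 1 library, and Col19a1 had none although it lies 9.21 kb from Col9a1.

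The 4 transmembrane genes were the least counted class. Col17a1, the hemidesmosome collagen that holds basal epithelial cells to the basement membrane, had 2 counts in 1 J110 library and none elsewhere. Col25a1 reached 2 counts, and Col13a1 and Col23a1 had none. In all, 22 of the 44 genes had at most 3 counts in every library, of which 10 had no count at all. Among all 52636 genes of the table, 30044 had no count in any library.

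When every gene with at least 1 count in any library was tested, 34 collagen genes entered and 17 passed the threshold, 14 lower and 3 higher in SSM3. The background was then 25.2% lower and 24.1% higher. The 7 genes added were Col1a1, Col6a2, Col12a1, Col15a1 and Col16a1, all lower in SSM3, and Col9a1 and Col4a3, both higher. Of these, DESeq2 also called Col1a1, Col6a2, Col12a1, Col16a1 and Col9a1. Against 3 counts per library in the line without counts, the fold was at least 4.55 for Col12a1, 1.59 for Col1a1 and 1.61 for Col9a1. For Col15a1 the bound was 0.908, which shows no difference.

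The genes that act on collagen chains were examined through 4 lists with 51 genes, of which 35 were tested, 27 were lower and 4 were higher in SSM3, beside the 39.2% and 38.6% of all genes given above. Of the tested genes, 14 passed the filter only through J110, which favours a lower value in SSM3. These were 8 genes of chain modification and folding, 5 of processing and cross-linking and 1 receptor. The same shares of all genes are the background for the counts of each list below. The median log2 fold change of the tested genes was -1.46, beside -0.014 for all genes tested.

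Chain modification and folding had 19 genes, 17 of them tested, with 12 lower, 2 higher and 3 not past the threshold. The highest levels were those of P4hb, the beta subunit of prolyl 4-hydroxylase, and this gene had 2203, 2122 and 2066 counts in J110 and 2236, 2131 and 2270 in SSM3. Its log2 fold change of 0.14 (standard error 0.067) did not pass the threshold (edgeR adjusted p = 0.0754). Serpinh1, the collagen chaperone HSP47, had 515, 487 and 515 counts in J110 and 348, 315 and 411 in SSM3, and was lower by a log2 fold change of -0.42 (standard error 0.094, edgeR adjusted p = 6.33e-04). The difference was 1.10-fold for P4hb and 1.34-fold for Serpinh1. P4hb passed the threshold with library size only, without TMM (0.31), and with overlapping genes left out (0.18).

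P4ha3, a catalytic subunit of prolyl 4-hydroxylase, had 39, 29 and 30 counts in J110 and 0, 0 and 0 in SSM3, at least 9.74-fold higher in J110 (edgeR adjusted p = 1.05e-07). P3h4, a partner of the lysyl and prolyl 3-hydroxylases, had 101, 109 and 101 counts in J110 and 1, 0 and 1 in SSM3, 147-fold higher by summed counts (interval 40.4 to 1220, edgeR adjusted p = 5.49e-11). Plod2, the lysyl hydroxylase that acts on collagen telopeptides, had 313, 303 and 270 counts in J110 and 8, 0 and 0 in SSM3, with a log2 difference of -6.64 ± 0.36 (edgeR adjusted p = 4.33e-11). Its SSM3 counts were all in replicate 1. P4ha3, P3h4 and Plod2 passed the filter only through J110, which favours a lower value in SSM3. Colgalt1, which adds galactose to hydroxylysine, had 510, 577 and 524 counts in J110 and 439, 396 and 591 in SSM3 (edgeR adjusted p = 0.405). Its counts nearly equalled those of Unc13a on the opposite strand, with which it shares exons, so the origin of these reads cannot be told apart. The higher genes of the list were Plod3, a lysyl hydroxylase, with a log2 fold change of 1.23, and the prolyl isomerase Ppib, with 0.41. Both share exons with a gene on the opposite strand, and for Ppib the counts of that gene, Snx22, were nearly the same.

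Secretion had 6 genes, all tested, with 5 lower, none higher and a median log2 fold change of -0.84. Mia3, the TANGO1 receptor that loads procollagen into transport carriers, had 638, 692 and 675 counts in J110 and 519, 482 and 454 in SSM3 (log2 fold change -0.38, edgeR adjusted p = 0.00192). Its relative Mia2 was lower by a log2 fold change of -0.72, and the coat subunits Sec23a and Sec24d were lower by -1.63 and -1.14. None of the 6 differed by as much as 4-fold. Mia3 did not pass with library size only, at -0.20, and when a change above 2-fold was required (glmTreat), the calls of the 4 lists went from 31 to 21, and Mia3, Mia2, Sec24d, Serpinh1 and the integrin chain Itgb1 were among those lost.

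Procollagen processing and cross-linking had 16 genes, 9 of them tested, with 8 lower and 1 higher. Sparc, a collagen-binding matricellular protein of basement membranes, had 1466, 1584 and 1500 counts in J110 and 37, 10 and 7 in SSM3 (log2 difference -6.30 ± 0.24, edgeR adjusted p = 5.53e-13). Pcolce2, an enhancer of procollagen C-proteinase, had 393, 434 and 406 counts in J110 and 0, 3 and 0 in SSM3, 389-fold higher by summed counts (interval 133 to 1888, edgeR adjusted p = 1.56e-13). All SSM3 counts of Pcolce2 were in replicate 2, and without that library the fitted log2 difference was -11.65 in place of -8.44, a value that then depends on the prior count. Loxl4, a lysyl oxidase, had 63, 60 and 67 counts in J110 and 0, 0 and 0 in SSM3, at least 19.0-fold higher in J110 (edgeR adjusted p = 3.92e-09). For these 3 genes every J110 library was above every SSM3 library. They passed the filter only through J110, as did Loxl2 below, which favours such an order. Without SSM3 replicate 1, which had the most SSM3 counts of Sparc, its log2 difference was -7.41. Loxl2, another lysyl oxidase, had 130, 127 and 118 counts in J110 and 6, 7 and 0 in SSM3, with a log2 difference of -4.73 ± 0.34 (edgeR adjusted p = 1.95e-09).

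Loxl3, of the same family, was lower by a log2 fold change of -1.46, but nearly equal counts were given to Htra2 on the opposite strand, and they cannot be told apart. The exception of the list was Tgm2, the gene of transglutaminase 2, which cross-links matrix proteins and has other roles inside cells. It had 172, 159 and 159 counts in J110 and 3263, 3803 and 3669 in SSM3, which on the log2 scale is a difference of 4.53 ± 0.085 (± standard error; edgeR, adjusted p = 1.70e-16). Tgm2 shares exons with Rprd1b on the opposite strand. The counts of Rprd1b were 112, 109 and 128 in J110 and 77, 88 and 98 in SSM3, below those of Tgm2 in every library.

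Collagen receptors had 10 genes, 3 of them tested. Itga2, the alpha chain of the integrin that binds collagen on epithelial cells and platelets, had 378, 342 and 294 counts in J110 and 0, 1 and 2 in SSM3, 320-fold higher by summed counts (interval 109 to 1553, edgeR adjusted p = 1.15e-13). Without SSM3 replicate 3, the fitted log2 difference of Itga2 was -8.97 in place of -8.15. Its beta chain Itgb1, shared with many integrins, was lower by a log2 fold change of -0.47 (standard error 0.071, edgeR adjusted p = 1.45e-05). Ddr1, the discoidin domain receptor of epithelial cells, had 167, 161 and 158 counts in J110 and 381, 480 and 489 in SSM3 (log2 difference 1.55 ± 0.098, edgeR adjusted p = 3.54e-10). Itga2 passed the filter only through J110. Of the 7 receptors not tested, Ddr2 had 11, 5 and 20 counts in J110 and 7, 1 and 3 in SSM3, with the lines overlapping, and the others had at most 5 counts in a library.

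**Figure D4:**
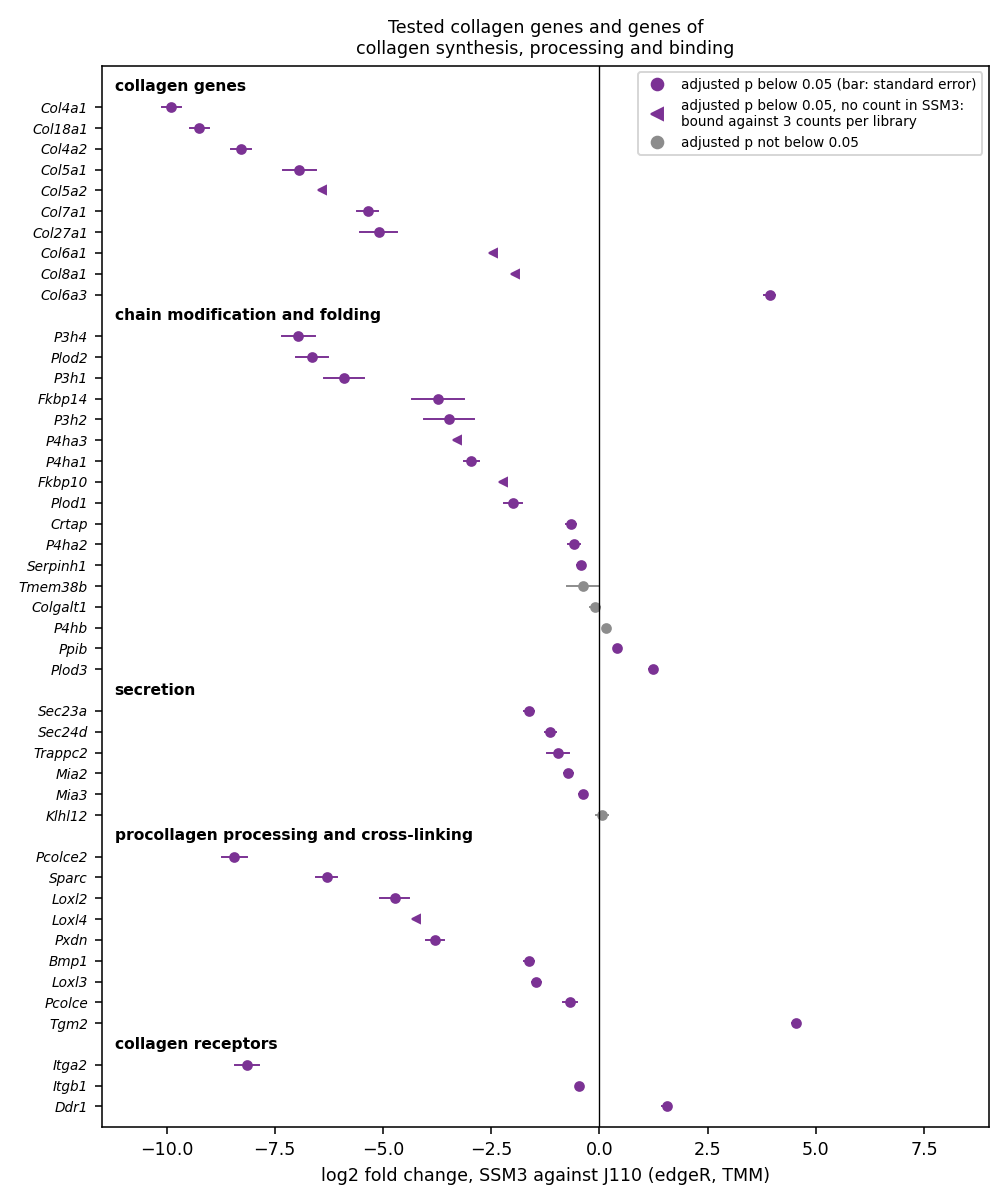
Log2 fold change, SSM3 against J110, of the 10 tested collagen genes and the 35 tested genes of the 4 lists, with the standard error as a bar, triangles for bounds where SSM3 has no count and grey for genes that did not pass the threshold. Most genes lie left of 0, with Col6a3, Plod3, Ppib, Tgm2 and Ddr1 past the threshold on the right.

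Markers of other cell types were looked at beside these values. The 8 fibroblast markers summed to 0.578 to 3.34 CPM in J110 and to 1337 to 1480 CPM in SSM3, nearly all from Dcn, and without Dcn to 0.396 to 0.835 and 1.11 to 2.34 CPM. Of these 8 genes, Pdgfrb, Lum and Dpt had no count in any library, while Pdgfra had 3, 1 and 4 counts in J110 and 2, 9 and 2 in SSM3, Postn had 2, 2 and 4 in SSM3 and at most 1 in J110, and Fap and Thy1 reached 1. Dcn had 0, 1 and 12 counts in J110 and 6643, 6698 and 6712 in SSM3. The summed level of 5 smooth muscle and pericyte markers was 0.396 to 0.578 CPM in J110 and 1.11 to 2.59 CPM in SSM3. Of 5 endothelial markers, Cdh5 had 836, 790 and 856 counts in J110 and 0, 2 and 0 in SSM3, giving sums of 158 to 181 and 0 to 0.425 CPM, while in J110 Kdr was at 8, 11 and 6 counts, Pecam1 at 3, 0 and 4, Tek at no more than 1 and Tie1 at 0. Of 5 leukocyte markers, whose sum was 14.8 to 22.2 CPM in J110, only Cd68 had more than 3 counts in a library, with 115, 95 and 70 in J110 and 9, 5 and 6 in SSM3. The sum of the epithelial markers was 2679 to 2768 CPM in J110, nearly all from Krt8 and Krt18, and 11881 to 13081 CPM in SSM3. The part that Dcn, Cdh5, Cd68 or the epithelial genes have in the collagen differences was not tested.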

How the data were processed

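RNA of 6 libraries was prepared with the QuantSeq 3′ kit. The authors trimmed the reads with cutadapt, mapped them to mm10 with HISAT2 (2.0.4), ran featureCounts per gene and deposited the raw counts, not normalised. The strand setting is not given in the sources used here. The sample labels gave line and replicate, and whether replicates were separate cultures is not stated beyond the word biological, so p-values measure the spread between these samples.

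Symbols and positions came from the GENCODE annotation of GRCm38, which named 99.6% of genes. Low counts were removed with filterByExpr, libraries were scaled with TMM, and all 12284 remaining genes were fitted with edgeR's quasi-likelihood test (version 4.0.16, R 4.3.3) with Benjamini-Hochberg adjustment and a threshold of 0.05. A line without counts was set to 3 counts per library, giving a bound. With 1 to 3 counts in all, the ratio of summed counts has a 95% exact binomial interval. Genes annotated as overlapping were found with bedtools 2.31.1.

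The members and lists were chosen with earlier results of these data known. Each tested collagen gene is named. An untested one is named with all counts from 10 counts in a library, and otherwise with its highest count, although full counts are also printed for some, chosen after their values were seen. Of each pathway list, the 3 tested genes with the highest mean CPM and the 2 with the largest change past the threshold are named, ranked by the fitted value, which for P4ha3 and Loxl4 depends on the prior count. Plod2, Plod3, Ppib, Loxl2 and Ddr2 were added after their values were seen. Alternatives covered DESeq2 1.42.0, limma-voom (limma 3.58.1), scalings, filters, a fold threshold, a replicate block and leaving out libraries or overlapping genes. Protein sequences were not used here, and some details of the origin of SSM3 are not reported here.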

Additional observations from a re-analysis of the deposited data

How the results depend on the processing

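All 10 collagen genes called by edgeR were kept in 16 of 18 alternatives, including each library left out in turn and the pair J110 replicate 3 and SSM3 replicate 2 left out together. However, 9 of the 10 passed the filter only through J110 and had few or no counts in SSM3. Most of these alternatives could therefore hardly change their calls. With at least 10 counts in every library, 1 collagen gene passed and 0 were lower in SSM3, because that filter removes genes absent from a line, and 18 genes of collagen synthesis and receptors passed, 14 of them lower. With at least 1 count in any library, 17 collagen genes passed, 14 lower and 3 higher. DESeq2 called 2 collagen genes higher, Col6a3 and Col9a1. Without genes that overlap others, 19 genes of collagen synthesis and receptors passed and 1, P4hb, was higher, as Plod3, Ppib, Tgm2 and Ddr1 were left out with other genes. The log2 fold change of Colgalt1, -0.10, was 0.07 with library size only and 0.02 without J110 replicate 3 and SSM3 replicate 2. It ranged from -0.24 to 0.01 when single libraries were left out, the lowest without SSM3 replicate 3 (edgeR adjusted p = 0.0366) and the highest without SSM3 replicate 2, and the cause was not tested.

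With the replicate number as a block, 10 collagen genes passed, 9 lower and 1 higher, and 31 genes of collagen synthesis and receptors passed. Deviations of libraries with the same number correlated only weakly, at 0.0118, 0.0155 and 0.0268. The labels give no shared origin, so the libraries were treated as unpaired. Of the 3 J110 libraries, 3 correlated best with their own number, which is a hint from the data and not the design.

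A count of 3 in a library is 0.578 to 0.668 CPM, and the depth limits what can be said of the 34 collagen genes not tested, 22 of which had at most 3 counts in every library.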
